A study of Mus musculus with 15 samples.

Results

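The 10 genes described here give RNAs that are known to stay in the nucleus, either because they are long noncoding RNAs (Malat1, Neat1, Meg3, Miat and Snhg11) or because a share of their transcripts keeps an intron and is held back there (Leng8, Clk1, Clk4, Luc7l and Ogt). They are 10 of the 57180 genes counted, taken by symbol after the Ensembl identifiers were mapped to mouse symbols. The genes were chosen by name with results of these libraries already known, among them the fall of Leng8 in the libraries labelled AMPK-/-, and which other measured values entered the choice is not recorded. For that reason the AMPK comparison of these genes is given as a description, with calls counted beside those over all genes and no p-value for a single gene, and the LMX1B comparisons are not independent evidence on them.

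The study sequenced polyadenylated RNA of C57BL/6 mouse brain stem, taken from the tissue that holds the centers for ventilatory control. The AMPK experiment holds 3 AMPK+/+ and 3 AMPK-/- libraries of neonatal mice, and the LMX1B experiment holds 3 LMX1B+/+, 3 LMX1B+/- and 3 LMX1B-/- libraries of embryos, whose day is not stated in the sources used here. AMPK-/- stands for the loss of the α2 catalytic subunit of the AMP-activated protein kinase, encoded by Prkaa2, and LMX1B is a homeodomain transcription factor needed by serotonergic neurons. The paper calls the wild-type mice littermates in both experiments, but which libraries shared a litter is not given. How either null allele was made is not given in the sources used here. No group received an agent according to the labels, and whether libraries of a group came from separate animals is not stated, so p-values measure the spread between these libraries. No nuclear or cytoplasmic fraction was sequenced, so the values are levels in whole tissue RNA.

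Most messenger RNAs leave the nucleus once they are spliced, capped and polyadenylated. Malat1 is held in nuclear speckles, Neat1 is the scaffold of paraspeckles, Miat forms separate nuclear domains in neurons, Meg3 is the maternally expressed noncoding RNA of the imprinted Dlk1-Dio3 domain, and Snhg11 is a neuronal host gene of small nucleolar RNAs. Clk1 and Clk4 encode kinases that phosphorylate SR splicing factors, Luc7l encodes a partner of the U1 snRNP, Ogt encodes the enzyme that adds O-GlcNAc to proteins, and Leng8 encodes a protein with a SAC3 domain, the fold of the TREX-2 scaffold that couples transcription to RNA export. Polyadenylated Clk1, Clk4, Luc7l and Ogt transcripts with a detained intron are spliced late or degraded in the nucleus, and such introns respond to stress and to the activity of the encoded protein in other systems.

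In the GENCODE vM21 annotation the protein-coding members hold many intron-retaining models. Clk1 (ENSMUSG00000026034, chromosome 1) and Clk4 (ENSMUSG00000020385, chromosome 11) each have 7 retained-intron transcripts, out of 13 and 14 transcripts. Leng8 (ENSMUSG00000035545, chromosome 7) has 3 of 10, Ogt (ENSMUSG00000034160, chromosome X) 3 of 7 and Luc7l (ENSMUSG00000024188, chromosome 17) 2 of 9. Snhg11 (ENSMUSG00000044349, chromosome 2), which this annotation lists as protein-coding, has 2 of 5. Of the 15318 protein-coding genes tested in the LMX1B experiment, 54.4% have at least 1 such transcript and 19.3% have 3 or more. Malat1 (ENSMUSG00000092341) and Neat1 (ENSMUSG00000092274) on chromosome 19, Meg3 (ENSMUSG00000021268) on chromosome 12 and Miat (ENSMUSG00000097767) on chromosome 5 have none.

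The retained introns were inside the counted regions. The gene length that the deposited RPKM values imply is 8132 bases for Clk1, which is also the total of its annotated exons with the retained-intron transcripts, and 5190 of those bases belong to retained-intron transcripts alone. For Clk4 the implied length is 5797 bases, of which 3469 are covered by retained-intron transcripts alone, so most counted bases of both kinase genes are intronic in the spliced messenger RNA. The share is smaller in Ogt (2035 of 8045 bases), Luc7l (1410 of 7523 bases) and Leng8 (809 of 6395 bases). A count of these genes therefore sums spliced and intron-retaining transcripts, and the tables cannot tell them apart. All 10 genes are long: the implied lengths run from 5797 bases in Clk4 to 21163 bases in Neat1, against a median of 3432 bases over the 21729 genes tested in the LMX1B experiment. Leng9 lies on the opposite strand and shares 263 exon bases with Leng8, and its level was 1.71 to 3.95 CPM in the 15 libraries. Whether the counting used strand is not given in the sources used here.

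**Figure D1:**
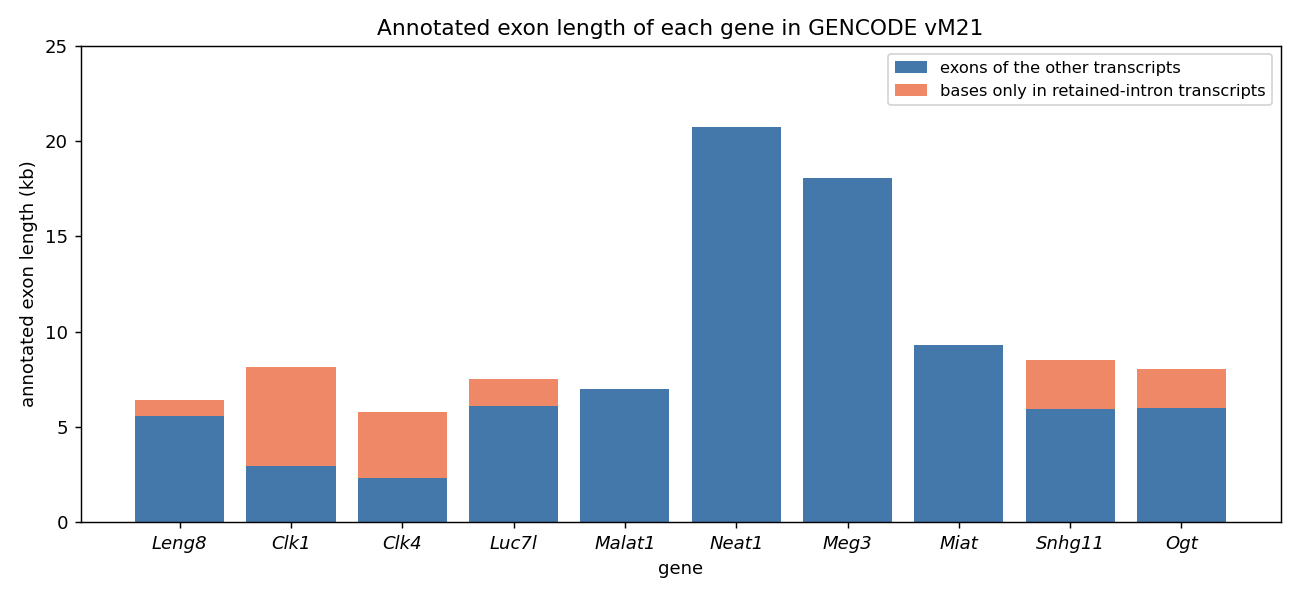
Annotated exon length of each gene in kilobases (bars stacked from 0), split into bases of ordinary transcripts and bases present in retained-intron transcripts alone. Most of the Clk1 and Clk4 exon bases (5190 of 8132 and 3469 of 5797) belong to retained-intron transcripts alone, and the 4 annotated long noncoding RNAs have none.

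The promoters of 4 members that moved together and of Malat1, which did not move with them, are printed to show what start regions lie behind the counts. RefSeq promoters on GRCm38.p6, from 250 bases before to 50 bases after the annotated start, were found for 7 of the 10 genes (not for Clk1, Luc7l and Neat1). Leng8 and Meg3 each had 2 promoters, of which the most upstream is printed and searched here. Capitals mark matches, on either strand, to CCAAT (37.4% of the 32851 promoters in the table hold it), the TATA box letters TATAAA (13.6%), the GC box letters GGGCGG (35.7%) and the cAMP response element TGACGTCA (1.79%). Overlapping matches run together.
Leng8, chr7:4136806-4137105, plus strand: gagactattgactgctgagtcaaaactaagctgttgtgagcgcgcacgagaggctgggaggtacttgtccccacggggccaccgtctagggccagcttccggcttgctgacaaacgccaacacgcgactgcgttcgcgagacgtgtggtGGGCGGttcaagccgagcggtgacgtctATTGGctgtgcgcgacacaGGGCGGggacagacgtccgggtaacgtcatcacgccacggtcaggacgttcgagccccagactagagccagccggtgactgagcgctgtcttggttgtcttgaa
Snhg11, chr2:158375463-158375762, plus strand: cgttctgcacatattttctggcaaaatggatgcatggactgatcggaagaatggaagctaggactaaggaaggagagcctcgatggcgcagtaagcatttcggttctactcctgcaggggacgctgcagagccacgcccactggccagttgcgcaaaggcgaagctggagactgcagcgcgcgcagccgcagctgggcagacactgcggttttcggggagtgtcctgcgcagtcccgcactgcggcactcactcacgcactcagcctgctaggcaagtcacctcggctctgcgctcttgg
Miat, chr5:112228899-112229198, minus strand: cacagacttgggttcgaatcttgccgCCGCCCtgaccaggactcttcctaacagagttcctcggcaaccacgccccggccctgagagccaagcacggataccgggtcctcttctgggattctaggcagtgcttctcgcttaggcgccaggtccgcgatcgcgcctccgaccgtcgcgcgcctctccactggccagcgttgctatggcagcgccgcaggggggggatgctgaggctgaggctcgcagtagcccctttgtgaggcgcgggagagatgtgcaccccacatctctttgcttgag
Meg3, chr12:109540746-109541045, plus strand: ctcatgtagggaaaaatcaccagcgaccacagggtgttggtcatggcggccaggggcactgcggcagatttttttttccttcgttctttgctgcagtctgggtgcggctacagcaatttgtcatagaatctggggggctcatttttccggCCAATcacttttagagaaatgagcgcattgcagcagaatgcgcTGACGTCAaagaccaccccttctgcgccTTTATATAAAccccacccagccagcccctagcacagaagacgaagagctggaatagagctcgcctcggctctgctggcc
Malat1, chr19:5802623-5802922, minus strand: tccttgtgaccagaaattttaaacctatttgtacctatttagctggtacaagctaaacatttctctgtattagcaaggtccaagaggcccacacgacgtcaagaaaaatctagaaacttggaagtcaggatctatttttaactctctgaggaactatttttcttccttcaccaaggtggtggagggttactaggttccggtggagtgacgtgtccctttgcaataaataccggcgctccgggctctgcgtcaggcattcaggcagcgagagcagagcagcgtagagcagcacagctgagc

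No searched motif was in all 5 printed promoters. Leng8 held 2 GC boxes and 1 CCAAT, Miat held 1 GC box, Meg3 held 1 CCAAT, 1 cAMP response element and 2 overlapping TATA box matches, and Snhg11 and Malat1 held none. The Clk4 promoter also held 1 cAMP response element. The Leng8, Miat and Snhg11 promoters were rich in GC (61.3%, 64.3% and 60%, with 29, 25 and 21 CpG), the Meg3 and Malat1 promoters less so (53.7% and 47.0%, with 13 and 10 CpG), and the median over all promoters in the table was 52.7% and 7 CpG.

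Depth was uneven in the AMPK experiment. Of its 6 libraries, 4 held 14975095 to 17384171 counts, while AMPK+/+ library 2 held 291212 and AMPK-/- library 3 held 335986, so that 3 counts there equal 9.96 and 9.04 CPM (counts per unit of library size, after scaling by the trimmed mean of M-values), against 0.0675 to 0.198 CPM elsewhere. The 9 LMX1B libraries held 28833130 to 37441679 counts. LMX1B+/+ library 3 stood apart in the share of its most abundant gene (ENSMUSG00000119584), 4.56% of counts against 13.7% to 22.7% in the other 8. By the index in their names, LMX1B+/+ libraries 2 and 3 cannot have shared a lane, nor can LMX1B+/- libraries 1 and 3, and which lane held which LMX1B library is not given, so no values within a lane can be had. Prkaa2, which encodes the α2 subunit, was at 21.9, 26.5 and 29.6 CPM in AMPK+/+, and the AMPK-/- libraries held 25.3, 22.2 and 12.1 CPM of it. These values overlap, so Prkaa2 does not check the AMPK labels, and the directions below are those of the labelled libraries. Lmx1b was at 22.5, 16.0 and 9.72 CPM in LMX1B+/+, 30.5, 11.9 and 14.2 CPM in LMX1B+/- and 1.45, 1.13 and 0.847 CPM in LMX1B-/-, so it fell in the null libraries and overlapped between LMX1B+/+ and LMX1B+/-. All 8 neuron markers were counted in every group, with a summed level of 3780 to 5970 CPM over the 15 libraries.

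Per length, Malat1, Meg3 and Snhg11 were the most abundant of the 10 genes in all 5 groups. In AMPK+/+ the mean level in the deposited RPKM, which is set per library and not rescaled, was 203 ± 43.3 for Malat1, 95.2 ± 30.4 for Meg3 and 88.8 ± 21.1 for Snhg11 (± SD, n = 3). Below them came Ogt at 24.3 ± 5.84 RPKM, and then Leng8, Clk1, Miat, Clk4, Luc7l and Neat1 between 16.3 and 8.15 RPKM, where each range over the 3 libraries overlapped that of the next gene in the order. In LMX1B+/+ the order began alike, with Malat1 at 166 ± 44.0, Meg3 at 149 ± 56.5 and Snhg11 at 139 ± 38.1 RPKM, all overlapping. Neat1 was last there at 0.248 ± 0.0539 RPKM, with a range that did not overlap that of Clk4 above it (9.66 ± 2.56). The Neat1 RPKM divides by an implied length of 21163 bases, and gene counts do not tell its 4 annotated transcripts apart. Its rank per length therefore depends on that divisor.

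Neat1 was the member that differed most between the experiments. It was at 199, 79.6 and 209.8 CPM in AMPK+/+ and 89.5, 85.0 and 105 CPM in AMPK-/-, but at 4.50, 4.88 and 5.27 CPM in LMX1B+/+, 2.60, 5.80 and 2.73 CPM in LMX1B+/- and 7.06, 6.05 and 4.74 CPM in LMX1B-/-. The lowest AMPK library was above the highest LMX1B library. Luc7l went the other way, with a mean of 62.7 ± 4.47 CPM in AMPK+/+ and 125 ± 8.78 CPM in LMX1B+/+ (± SD, n = 3). So did Miat (means of 99.3 and 187 CPM), Snhg11 (715 and 1099 CPM) and Ogt (184 and 285 CPM), also with no overlap between these groups. Meg3, Leng8 and Clk1 had higher means in LMX1B+/+ with overlapping groups. Clk4 was at 51.5 and 51.9 CPM, and Malat1 had a lower mean in LMX1B+/+. Age, experiment and sequencing run cannot be told apart in these differences, and the 2 tables were scaled separately, so no test was made. Oligodendrocyte markers also differed between the experiments, with a summed level of 13109 to 22758 CPM in the AMPK libraries and 76.0 to 158 CPM in the LMX1B libraries, and their part in the Neat1 difference was not tested.

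**Figure D2:**
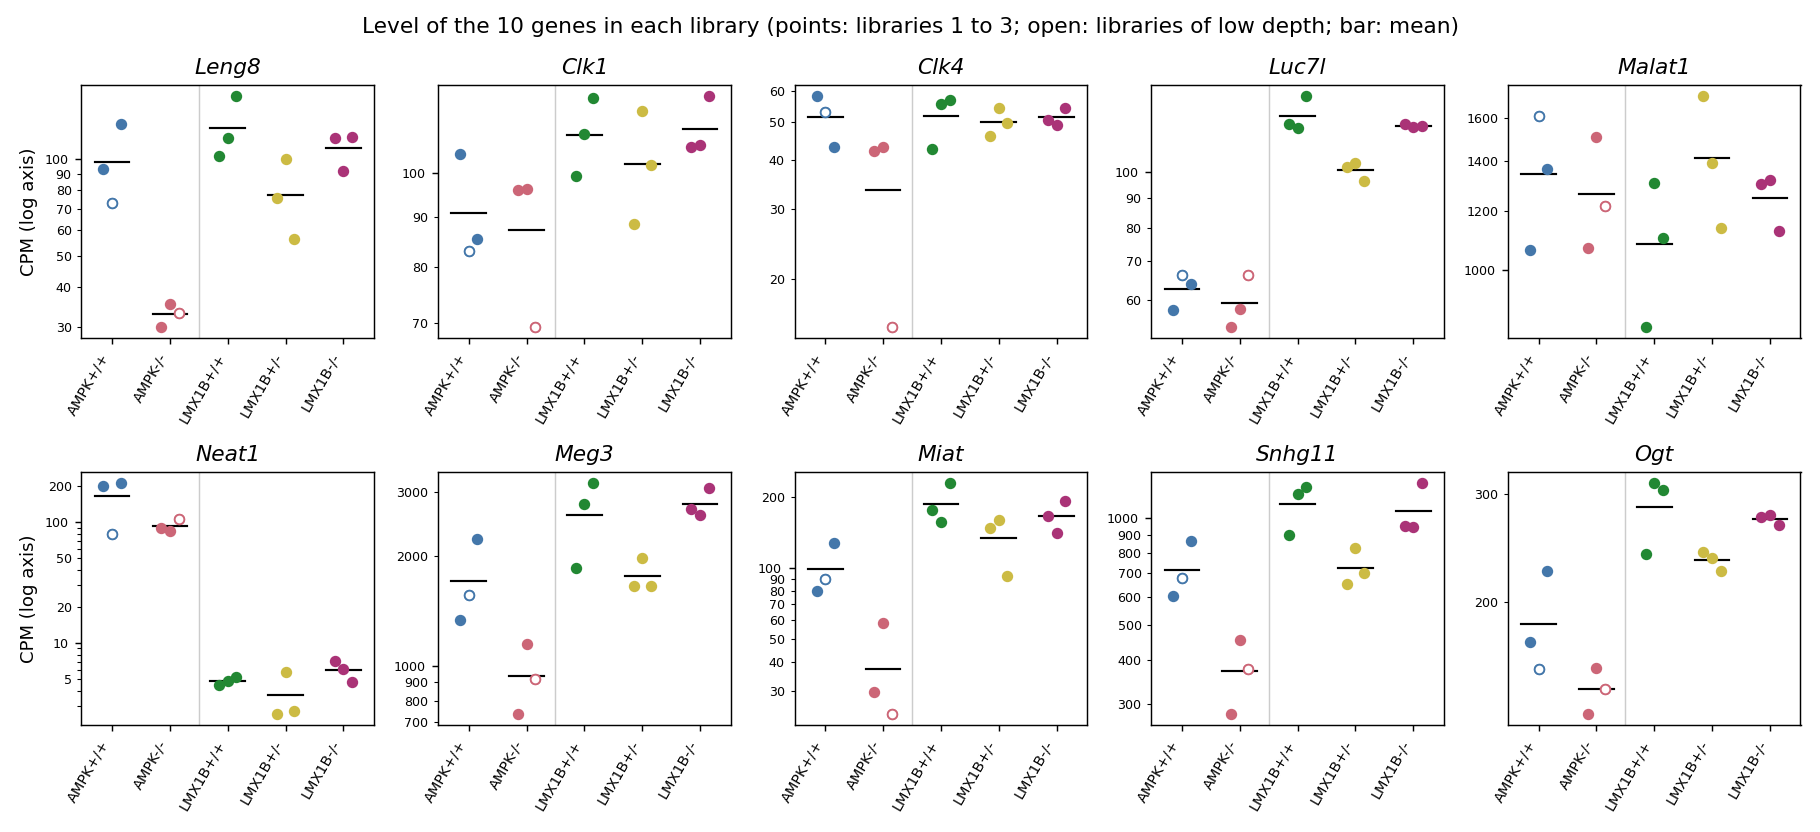
CPM of each gene (vertical log axis) in the 5 genotype groups, 3 libraries each, with the group mean as a bar and the 2 libraries of low depth as open points. Leng8, Meg3, Miat and Snhg11 lie lower in every AMPK-/- library than in any AMPK+/+ library, and Neat1 lies below 10 CPM in all 9 LMX1B libraries.

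In the libraries labelled AMPK-/-, 4 of the 5 long noncoding RNAs were lower and Malat1 was not. Miat was at 80.0, 89.6 and 128 CPM in AMPK+/+ and 29.7, 58.4 and 24.1 CPM in AMPK-/-, a log2 fold change of -1.29 ± 0.24 (± SE, here and below) or a level 0.41 of that in AMPK+/+. Snhg11 was at 603, 677 and 865 CPM against 282, 453 and 377 CPM, a log2 fold change of -0.96 ± 0.19. The 2 groups do not overlap for either gene, and the lowest AMPK+/+ library was the one labelled 1 in both. Meg3 was at 1338, 1563 and 2227 CPM in AMPK+/+ and 738, 1148 and 919 CPM in AMPK-/-, a log2 fold change of -0.87 ± 0.20, again with no overlap.

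Neat1 and Malat1, whose genes are neighbours on chromosome 19, behaved differently in that comparison. Neat1 had a log2 fold change of -0.96 ± 0.22, but its level in AMPK+/+ library 2 (24 counts, 79.6 CPM, exact Poisson 95% interval 51.0 to 119 CPM) was below all 3 AMPK-/- libraries. Malat1 was at 1061, 1606 and 1364 CPM in AMPK+/+ and 1068, 1509 and 1218 CPM in AMPK-/-, a log2 fold change of -0.08 ± 0.19, with overlapping groups. Such intervals cover counting error alone, and the libraries of low depth carry wide ones for the rarer genes: Miat in AMPK-/- library 3 rests on 8 counts (24.1 CPM, 10.4 to 47.5 CPM).

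Among the detained-intron genes, Leng8 had the largest change of all 10 members and the others had small ones. Leng8 was at 93.1, 73.0 and 128 CPM in AMPK+/+ and 30.0, 35.3 and 33.2 CPM in AMPK-/-, a log2 fold change of -1.66 ± 0.20 or 0.315 of the AMPK+/+ level, and this fall was known when the genes were chosen. The library of low depth in AMPK-/- rests on 11 counts of Leng8 (33.2 CPM, 16.6 to 59.3 CPM) and does not stand apart from its group. Ogt was at 172, 156 and 225 CPM and 132, 156 and 145 CPM, a log2 fold change of -0.39 ± 0.17, with groups that overlap through AMPK+/+ library 2.

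The CLK kinase genes had small changes. Clk4 was at 58.2, 53.1 and 43.2 CPM in AMPK+/+ and 42.3, 43.3 and 15.1 CPM in AMPK-/-, a log2 fold change of -0.38 ± 0.22, and its lowest value rests on 5 counts (4.89 to 35.2 CPM). Clk1 was at 105, 83.0 and 85.3 CPM and 95.9, 96.3 and 69.3 CPM, a log2 fold change of -0.03 ± 0.18. Luc7l, the U1 gene, was at 57.7, 66.4 and 64.0 CPM and 54.0, 57.9 and 66.3 CPM, a log2 fold change of -0.10 ± 0.18. The groups of Clk1 and Luc7l overlap, and those of Clk4 overlap by a narrow margin.

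Over the 10 members, 5 were called lower at an adjusted p under 0.05 (Leng8, Miat, Neat1, Snhg11 and Meg3) and 0 higher, where 5.17% of the 17397 genes tested were called lower and 3.77% higher by edgeR's quasi-likelihood test. In 4 members the groups do not overlap and AMPK-/- was lower, against 12.7% of all genes. The median log2 fold change was -0.63 over the members, -0.96 over the 5 long noncoding RNAs, -0.38 over the 5 detained-intron genes and -0.01 over all genes tested. Nothing is read from these counts, since the genes were selected on this contrast. Length moved with the result: the 5151 other tested genes at least as long as Clk4, the shortest member, had a median log2 fold change of -0.21 with 10.4% called lower, and shorter genes a median of 0.11. With the length trend removed the members' median was -0.35, 7 of 10 members were negative, and Leng8, Miat and Snhg11 were called but Neat1 (-0.62) and Meg3 (-0.49) were not. Fewer cells of a type and less RNA per cell cannot be told apart in bulk tissue.

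The AMPK count changed with the libraries and the tool. It was 4 to 6 when any 1 library was left out. Without the 2 libraries of low depth, 0 of 10 members and 6 of 18088 genes were called. In that fit 8 of 10 members had a negative log2 fold change, the median was -0.68 and 5 members had an unadjusted p under 0.05. With limma on log2(RPKM + 1) the count was 0 of 10 members and 0 genes in all, with 5 members at an unadjusted p under 0.05. The number of all genes at that unadjusted p was not counted in these 2 fits, and in the main fit it was 4272 of 17397. Nothing is read from these values either, since the genes were selected on this contrast. Skeletal muscle markers moved with the groups through 1 library: their summed level was 785 CPM in AMPK+/+ library 3 against 6.03 to 10.5 CPM in the other 5, and without that library 5 members were still called. Choroid plexus markers summed to 9.96 to 15.9 CPM in AMPK+/+ and 36.6 to 133 CPM in AMPK-/-, with 2 of 4 tested called higher (Ttr 3.80 and Kcnj13 3.98), and the part of these cells in the values of the 10 genes was not tested. Of the 8 neuron markers 4 were higher in AMPK-/-, led by Stmn2 (0.75) and Tubb3 (0.65), and Rbfox3, a neuronal splicing factor, was lower (-1.08). Of 5 tested erythroid markers Hbb-bs (0.60) and Hba-a2 (0.61) were higher. None of the astrocyte, oligodendrocyte, microglia and cerebellar granule cell markers was called by edgeR.

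In LMX1B+/- against LMX1B+/+, the members that were lower were Leng8, Snhg11, Meg3 and Luc7l. Leng8 was at 102, 116 and 157 CPM in LMX1B+/+ and 75.7, 100.3 and 56.2 CPM in LMX1B+/-, a log2 fold change of -0.69 ± 0.20 (adjusted p = 0.0143). The 2 groups do not overlap, but the highest LMX1B+/- library and the lowest LMX1B+/+ library are close. Snhg11 was at 899, 1174 and 1224 CPM and 652, 823 and 702 CPM, a log2 fold change of -0.60 ± 0.16 (adjusted p = 0.0106), with no overlap. Meg3 was at 1851, 2779 and 3177 CPM and 1661, 1976 and 1659.8 CPM, a log2 fold change of -0.56 ± 0.18 (adjusted p = 0.0297), and here LMX1B+/+ library 1 lies among the LMX1B+/- libraries.

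Luc7l had the smallest of these changes and the tightest groups. It was at 121, 119 and 135 CPM in LMX1B+/+ and 102, 103 and 96.2 CPM in LMX1B+/-, a log2 fold change of -0.31 ± 0.09 (adjusted p = 0.0139). Miat, the neuronal nuclear RNA, was at 176, 157 and 229 CPM and 148, 160.0 and 92.2 CPM, a log2 fold change of -0.49 ± 0.20 that did not pass (adjusted p = 0.0666). Ogt did not pass either, at 239.5, 312 and 304 CPM and 241, 236 and 225 CPM with a log2 fold change of -0.29 ± 0.11 (adjusted p = 0.0615). Malat1 was the one member with a positive value, at 838, 1308 and 1103 CPM and 1708, 1391 and 1136 CPM, a log2 fold change of 0.38 ± 0.18 (adjusted p = 0.115), and it was called higher with DESeq2, with all genes of any count, with the length trend removed and without LMX1B+/+ library 2. The log2 fold changes of Neat1, Clk1 and Clk4 were -0.40 ± 0.27, -0.10 ± 0.11 and -0.05 ± 0.12 and did not pass. Over all 9 LMX1B libraries Clk1 ranged from 88.6 to 119.9 CPM and Clk4 from 42.7 to 57.1 CPM.

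That makes 4 of 10 members lower and 0 higher, where 17.3% of the 21729 genes tested were called lower and 19.4% higher. Groups do not overlap for 3 members (Leng8, Snhg11 and Luc7l), against 21.9% of all genes in the lower direction. The median log2 fold change was -0.35 over the members and -0.03 over all genes. Among the 5396 other tested genes at least as long as Clk4, 38.3% were called lower and 7.49% higher, with a median of -0.26, so the members' share is near that of genes of their length. When the trend of change with gene length was removed, 0 members were lower and Malat1 alone was called, as higher, with a members' median of -0.08. Without LMX1B+/+ library 3, the one that stood apart, 0 of 10 members were called, and without LMX1B+/- library 3 the count was 2.

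Blood and glial markers moved with this comparison. All 6 erythroid markers rose in LMX1B+/- (summed level 508 to 1246 CPM in LMX1B+/+ and 3542 to 7502 CPM in LMX1B+/-, Hbb-bs at a log2 fold change of 2.94), and all 6 oligodendrocyte markers fell (119 to 147 CPM and 76.0 to 91.2 CPM, Mbp at -0.74). Without 1 library in turn the erythroid count stayed at 6 and the oligodendrocyte count ran from 3 to 6. Of the 6 astrocyte markers 2 fell, Gfap and Aqp4, at -1.33 and -0.82. Of the 6 microglia markers Csf1r was lower (-0.63), of 5 tested cerebellar granule cell markers Neurod1 was lower (-0.96), of 6 choroid plexus markers 0 were called, and of 7 tested skeletal muscle markers Tnnt3 (1.78) and Acta1 (0.78) were higher. Of the 8 neuron markers Nefl (0.60) and Stmn2 (0.44) were higher and Rbfox3 (-0.43) and Syt1 (-0.44) lower. No erythroid or oligodendrocyte marker was at 0 in all libraries of a group, and the part of these cells in the values of the 10 genes was not tested.

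In LMX1B-/- against LMX1B+/+, no member passed the test. The comparison shares its LMX1B+/+ libraries with the one above. Leng8 was at 116, 91.6 and 118 CPM in LMX1B-/-, a log2 fold change of -0.21 ± 0.20, and Meg3 at 2695, 2592 and 3088 CPM, a log2 fold change of 0.10 ± 0.18. Snhg11 was at 952, 945 and 1256 CPM, a log2 fold change of -0.06 ± 0.16. These levels lie within or close to the LMX1B+/+ range, and all 10 members overlap between the groups. The values ran from -0.21 ± 0.20 in Leng8 to 0.28 ± 0.27 in Neat1, 6 negative and 4 positive (7 negative when scaled by library size alone), with a median of -0.03. The counts were 0 of 10 lower and 0 of 10 higher by edgeR, where 0.0184% of the 21729 genes (4 genes) were called lower and 0% higher, and 0 of 10 by DESeq2, limma and the likelihood-ratio test. No member had an unadjusted p under 0.05, against 1757 of all genes, and groups that do not overlap were found in 0 members against 6.09% (lower) and 11.9% (higher) of all genes.

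LMX1B-/- against LMX1B+/- shares libraries with both of those comparisons, so its values are not a separate measurement. Snhg11 was higher in LMX1B-/- by a log2 fold change of 0.53 ± 0.16 (adjusted p = 0.0269) and Meg3 by 0.66 ± 0.18 (adjusted p = 0.0188). Luc7l, at 121, 119 and 120.0 CPM in LMX1B-/-, was higher by 0.26 ± 0.09 (adjusted p = 0.048). Leng8 (0.49 ± 0.20, adjusted p = 0.088) and Neat1 (0.68 ± 0.27, adjusted p = 0.0852) did not pass. The counts were 3 of 10 higher and 0 lower, where 11.5% of genes were called higher and 14% lower, and 4 members do not overlap (these 3 and Ogt) against 21% of all genes. Of the other tested genes as long as the members, 28.2% were called higher. The count was 0 of 10 after the length trend was removed, and also without LMX1B+/- library 1, without LMX1B+/- library 3 or without LMX1B-/- library 3.

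**Figure D3:**
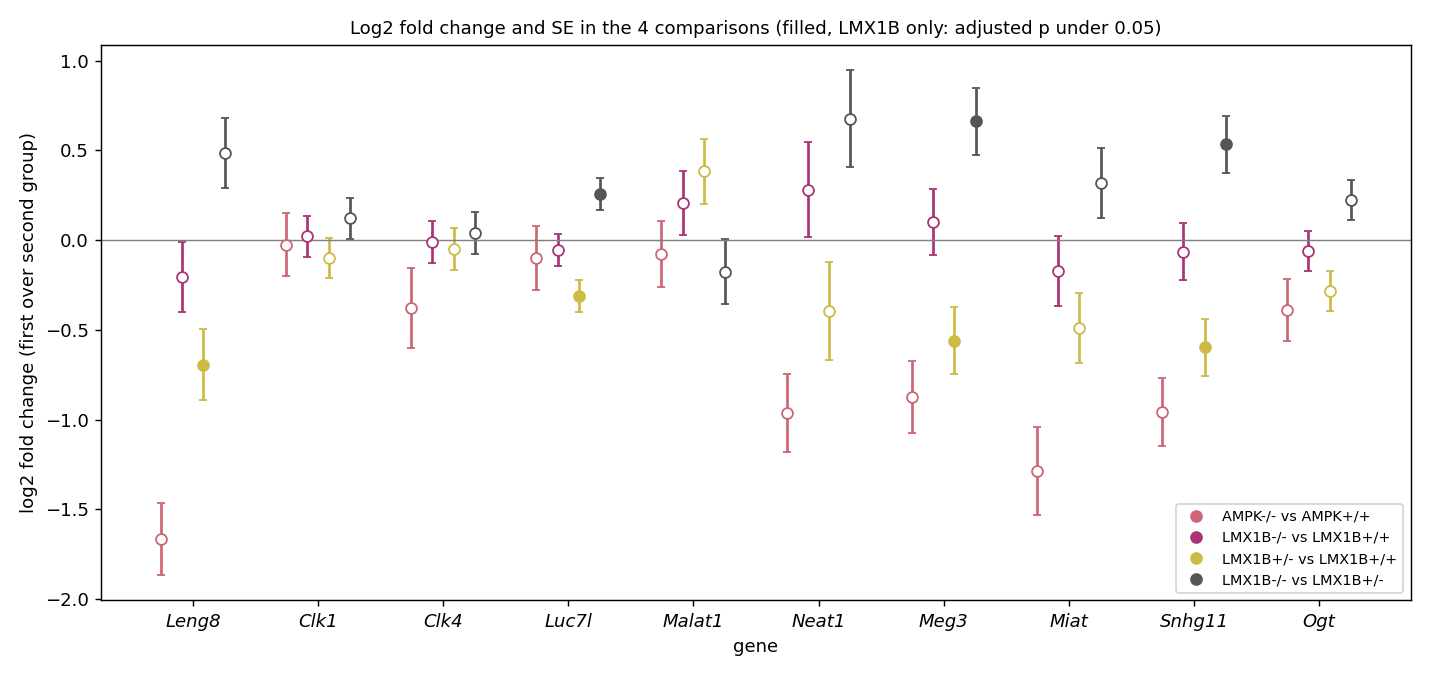
Log2 fold change (vertical axis, bars ± SE) of each gene in the 4 comparisons, each as the first over the second genotype, with filled points, in the LMX1B comparisons alone, for an adjusted p under 0.05 over all genes tested. The AMPK values of Leng8, Neat1, Meg3, Miat and Snhg11 lie between -0.87 and -1.66, the LMX1B-/- against LMX1B+/+ values between -0.21 and 0.28, and Malat1 is within 0.4 of 0 throughout.

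Malat1 did not follow the other members across libraries. Pearson's r between the log2 CPM of 1 member and the mean of the other 9 was 0.25 for Malat1 over the 6 AMPK libraries and -0.22 over the 9 LMX1B libraries. For Leng8, Meg3 and Snhg11 it was 0.94, 0.93 and 0.94 in AMPK and 0.92, 0.91 and 0.86 in LMX1B, and for Miat 0.97 and 0.74. Clk1 and Luc7l were at 0.25 and 0.22 in AMPK and at 0.73 and 0.83 in LMX1B. These coefficients are descriptions: the libraries of an experiment share their genotype groups and their scaling, 2 AMPK libraries are shallow, and the genes were chosen together.

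The genes most like the members' mean differed between the experiments. Over the 6 AMPK libraries and 6806 genes of at least 20 CPM they were Scrt1, Usp12, Cacna1i, Rnf10 and Syt7 (Pearson's r 0.999 to 0.991). Over the 9 LMX1B libraries and 7707 genes they were Akap8, Cers4, Col11a1, Zc3h7a and Anks3 (0.968 to 0.946). Scrt1 encodes a neuronal zinc finger repressor, Syt7 a synaptotagmin and Cacna1i a T-type calcium channel, while Akap8 encodes a nuclear anchoring protein of protein kinase A. No gene was in both lists of 5.

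Ratios of 2 genes within a library need no scaling between libraries. The share of all gene pairs whose ratios do not overlap between groups was not counted. For single genes, 12.7% of those tested did not overlap with AMPK-/- lower. The members were selected on the AMPK contrast, so nothing is read from AMPK groups that separate here or in the next paragraph. Meg3 to Rian, its neighbour in the same imprinted domain, was 5.15, 5.54 and 7.49 in AMPK+/+ and 3.26, 3.65 and 4.92 in AMPK-/-. Every AMPK-/- ratio was below every AMPK+/+ ratio, while Rian itself was at 259.7, 282 and 297 CPM and 226, 315 and 187 CPM. In the LMX1B experiment the ratio was 2.53, 3.32 and 3.93 in LMX1B+/+, 2.45, 2.54 and 1.95 in LMX1B+/- and 3.42, 2.93 and 3.26 in LMX1B-/-. There LMX1B+/- lies below LMX1B-/- with no overlap and overlaps LMX1B+/+ through library 1.

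The other ratios separated the AMPK groups in Ogt to Oga and Clk1 to Clk4 and not in the rest. Ogt to Oga, the enzymes that add and remove O-GlcNAc, was 1.55, 1.68 and 1.60 in AMPK+/+ and 1.22, 1.39 and 1.33 in AMPK-/-, with no overlap, and ranged from 1.35 to 1.64 over the 9 LMX1B libraries with overlap. Clk1 to Clk4 was 1.80, 1.56 and 1.97 in AMPK+/+ and 2.27, 2.23 and 4.6 in AMPK-/-, where the last value rests on 23 and 5 counts. The groups of this ratio do not overlap, while its range over the LMX1B libraries was 1.92 to 2.32. Luc7l to Luc7l2 was 0.441 to 1.00 in AMPK+/+ and 0.50 to 0.599 in AMPK-/-, and 0.883 to 1.11 in the LMX1B libraries. Neat1 to Malat1 was 0.188, 0.0496 and 0.154 in AMPK+/+ and 0.0838, 0.0563 and 0.0866 in AMPK-/-, and at most 0.00541 in the LMX1B libraries.

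**Figure D4:**
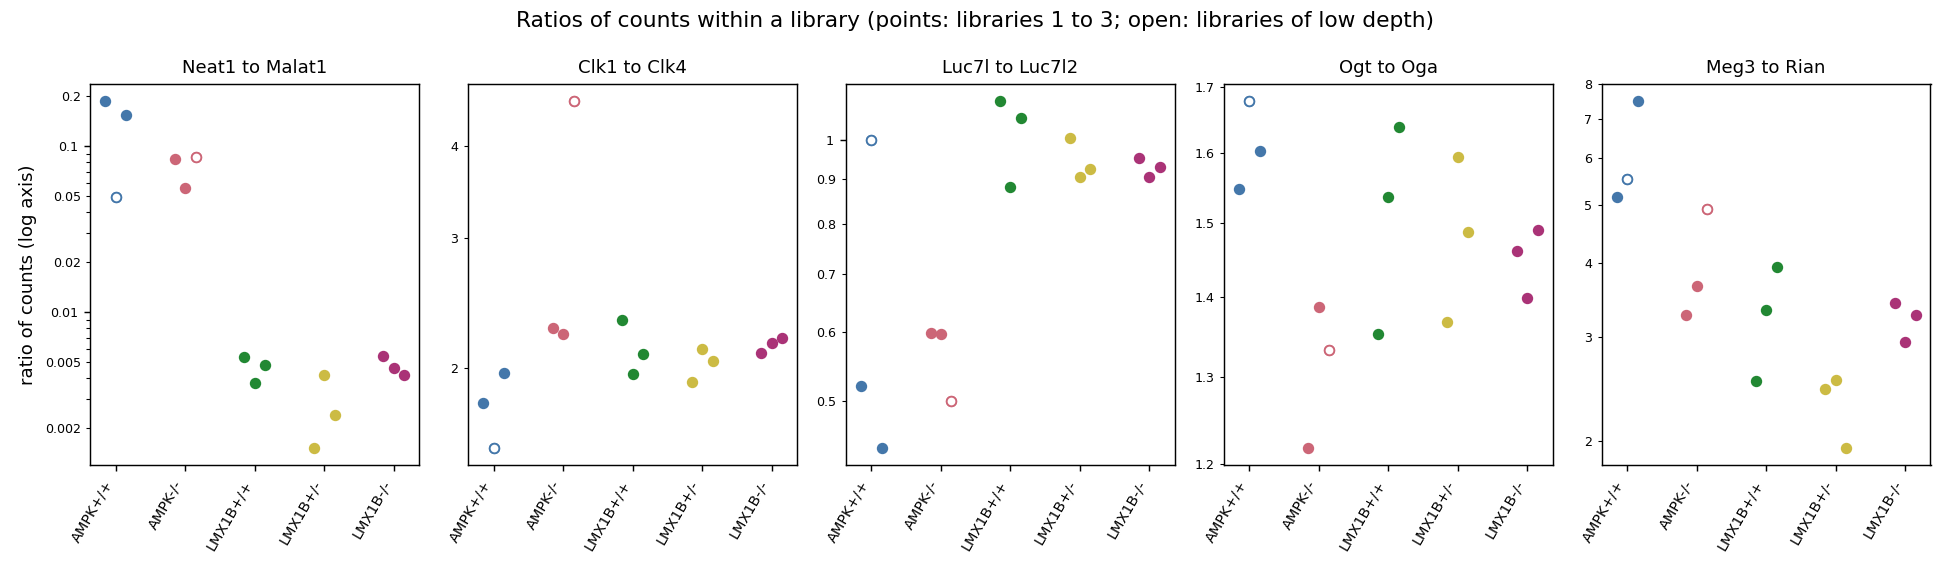
Ratio of the counts of 2 genes within each library (vertical log axis) by genotype, with the 2 libraries of low depth as open points. Meg3 to Rian lies lower in all 3 AMPK-/- libraries (3.26 to 4.92) than in the AMPK+/+ libraries (5.15 to 7.49), and Neat1 to Malat1 is far lower in the LMX1B than in the AMPK experiment.

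Summed, the 5 long noncoding RNAs took 0.334%, 0.416% and 0.531% of all counts in AMPK+/+ and 0.215%, 0.290% and 0.261% in AMPK-/-. In the LMX1B experiment they took 0.364%, 0.544% and 0.712% in LMX1B+/+, 0.349%, 0.431% and 0.320% in LMX1B+/- and 0.540%, 0.518% and 0.586% in LMX1B-/-. The AMPK groups do not overlap, and LMX1B+/- overlaps LMX1B+/+ but not LMX1B-/-. The 5 detained-intron genes together took 0.0446% to 0.0604% in AMPK+/+ and 0.0324% to 0.0347% in AMPK-/-, again with no overlap. Over the LMX1B libraries their share ran from 0.0463% to 0.0958%, with its highest value in LMX1B+/+ library 3.

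Transcripts translated in the cytoplasm and those made in mitochondria took larger shares in AMPK-/- and LMX1B+/- than in the wild-type libraries. The 90 cytosolic ribosomal protein genes took 0.547%, 0.454% and 0.384% of counts in AMPK+/+ and 0.641%, 0.660% and 0.793% in AMPK-/-. They took 0.511%, 0.531% and 0.702% in LMX1B+/+, 1.05%, 1.07% and 1.25% in LMX1B+/- and 0.656%, 0.664% and 0.626% in LMX1B-/-. The 37 mitochondrially encoded genes took 10.4% to 13.9% in AMPK+/+ and 20.05% to 21.7% in AMPK-/-, and 5.57% to 6.74%, 9.58% to 14.7% and 7.23% to 7.98% in LMX1B+/+, LMX1B+/- and LMX1B-/-. AMPK-/- and LMX1B+/- were thus above their wild-type libraries in both classes with no overlap. LMX1B-/- was also above LMX1B+/+ in the mitochondrial class with no overlap, and overlapped it in the ribosomal protein class. Its share of the long noncoding RNAs lay within the LMX1B+/+ range. Shares of a total depend on each other, no fraction was measured, and what these shares say about the nuclear part of the RNA was not tested.

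**Figure D5:**
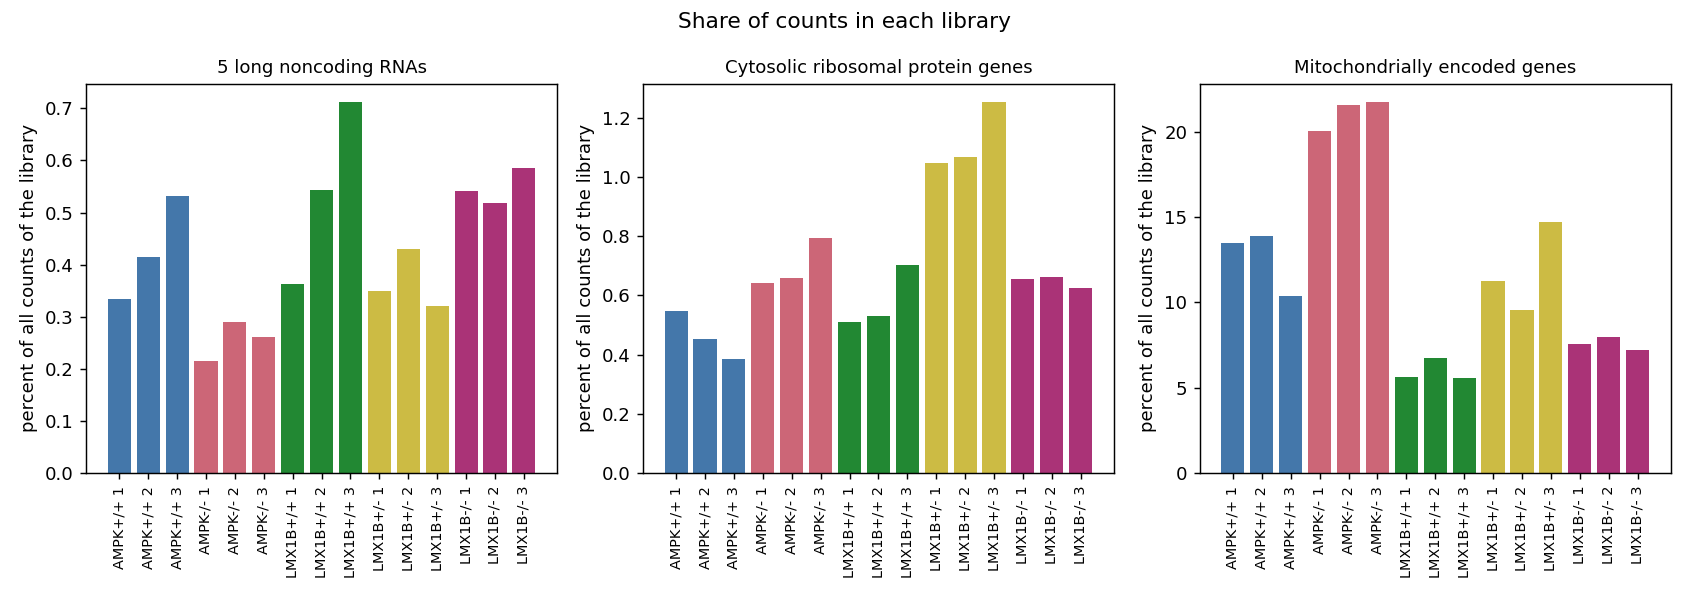
Percent of all counts in each of the 15 libraries (bars from 0, colored by genotype) taken by the 5 long noncoding RNAs, the 90 cytosolic ribosomal protein genes and the 37 mitochondrially encoded genes. The AMPK-/- libraries are lowest in the first panel (0.215% to 0.290%) and highest in the third (20.05% to 21.7%), and LMX1B+/- is highest in the second (1.05% to 1.25%).

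Other genes known for detained introns were called lower more often than higher, until the length trend was removed in LMX1B+/-. Of 30 such genes, 6 were lower and 0 higher in AMPK-/- (5.17% of all genes tested and 10.4% of those as long as the members were lower), with Pabpn1, a poly(A)-binding protein of the nucleus, at a log2 fold change of -1.17 and the RNA helicase gene Ddx17 at -0.67. In LMX1B+/- against LMX1B+/+, 15 were lower and 3 higher (17.3% of all genes and 38.3% of those as long as the members were lower), led by Arglu1 (-0.55) and Nktr (-0.53) and by Tra2b (0.53) and Rsrc2 (0.52). The list medians were -0.20 and -0.28. With the length trend removed, the other detained-intron genes gave 2 lower and 0 higher in AMPK-/- and 5 lower and 7 higher in LMX1B+/-. Without AMPK+/+ library 3, AMPK-/- library 1 or AMPK-/- library 3 the AMPK count was 1 lower, and without LMX1B+/+ library 3 or LMX1B+/- library 3 the LMX1B+/- count was 4 lower. Without the 2 libraries of low depth, no gene of this or any list below was called in AMPK-/-. In LMX1B-/- against LMX1B+/+ 0 of 30 were called.

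The counts in this paragraph and the next 2 stand beside these shares. In AMPK-/- 5.17% of all genes tested were called lower and 3.77% higher, and 10.4% and 0.796% of those as long as the members. In LMX1B+/- 17.3% of all genes were called lower and 19.4% higher, and 38.3% and 7.49% of those as long as the members. Whether any list differs from these shares was not tested. Of 22 SR and SR-related genes, 3 were lower and 0 higher in AMPK-/-: Scaf1 (-1.21), Srrm2 (-1.24) and Srrm1 (-0.96), which encode large SR-related proteins. In LMX1B+/- 10 were lower and 3 higher, with Srrm2 at -0.64 and Srrm4, the neuronal microexon regulator, at -0.67, against Tra2b and Srsf3 (0.46). Of 13 other CLK, DYRK and SRPK kinases and relatives, 3 were lower in AMPK-/- (Hipk2 -1.38, Dyrk1b -0.99 and the muscle kinase gene Srpk3 -1.13, with 1 left without AMPK+/+ library 3), and 6 were lower and 1 higher in LMX1B+/- (Hipk2 -0.84, Dyrk1b -0.67 and Dyrk3 0.46). Of 11 other LUC7-like and U1 snRNP genes, Snrnp70, the U1 70K protein, was lower in AMPK-/- (-0.72) and, with Tia1 (-0.38), in LMX1B+/- (-0.40). The LMX1B+/- counts of lower genes were smaller after the length trend was removed, at 3 lower and 4 higher SR genes, 2 lower and 1 higher kinases and 0 lower U1 genes. Without LMX1B+/- library 3 they were 4 lower SR genes, 4 lower kinases and 0 lower U1 genes. Scaling by library size alone gave 17 lower and 0 higher detained-intron genes, 12 lower and 0 higher SR genes, 7 lower and 0 higher kinases and 6 lower U1 genes in LMX1B+/-.

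The partners of single members showed no common direction. Of 16 paraspeckle protein genes, which bind Neat1, Smarca4 was lower in AMPK-/- (-0.62), and in LMX1B+/- Sfpq was lower (-0.30) and 4 were higher, led by Matr3 (0.81) and Nono (0.55), a split that became 4 lower and 1 higher when scaled by library size alone. Of 9 other SAC3-domain, TREX-2 and RNA export genes, Sem1 was higher in AMPK-/- (0.77). In LMX1B+/- 4 were higher, led by Sem1 (1.17) and the centrin gene Cetn2 (1.08), and Mcm3ap (-0.34) and the export receptor gene Nxf1 (-0.31) were lower. Of 5 tested other enzymes of the O-GlcNAc cycle none was called in AMPK-/-, where Oga was at -0.12, and in LMX1B+/- Gfpt2 was lower (-0.68) and Uap1 higher (0.29).

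Among other noncoding RNAs the picture was mixed. Of 16 tested nuclear long noncoding RNAs outside the members, Firre was lower in AMPK-/- (-0.74), and of 18 in LMX1B+/-, Firre (-0.67), Mirg (-0.43) and Peg13 (-0.37) were lower and Pantr1 (0.87) was higher. In the Dlk1-Dio3 domain that holds Meg3, the neighbouring gene Begain was lower in both comparisons (-0.88 and -0.59), of 5 and 6 tested. Of 13 tested other small nucleolar RNA hosts 0 were called in AMPK-/-, where 5.17% of all genes tested were called lower. Some hosts were rare there, such as Snhg16 and Snhg17 (means of 0.851 and 1.91 CPM in AMPK-/-). Those means are below the 9.04 CPM that 3 counts equal in AMPK-/- library 3, so little can be read from the count. In LMX1B+/- 4 of 14 were higher, led by Snhg6 (1.14) and Snhg8 (0.96), and Snhg17 was lower (-0.63). There 19.4% of all genes were called higher and 17.3% lower. Under scaling by library size alone the hosts gave 2 higher and 2 lower.

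In LMX1B-/- against LMX1B+/+ no gene of these lists was called by edgeR's quasi-likelihood test. In LMX1B-/- against LMX1B+/-, which shares its LMX1B+/- libraries with the comparison above, fewer genes were called. Of all genes tested, 11.5% were called higher and 14% lower there. Of the other detained-intron genes Nktr (0.44) and Ccnl1 (0.35) were higher and Tra2b lower (-0.45). Of the SR genes 4 were higher, led by Srrm2 (0.54) and Srsf4 (0.46), and Tra2b and Srsf3 (-0.42) were lower. Of the kinases Hipk2 (0.56), Dyrk1a (0.38) and Hipk3 (0.34) were higher and Dyrk3 lower (-0.48). The SAC3-domain, TREX-2 and RNA export genes Cetn2 (-0.81), Sem1 (-0.72), Cetn3 (-0.65) and Nxt1 (-0.62) were lower. So were the paraspeckle genes Matr3 (-0.59) and Nono (-0.44) and the U1 gene Snrpc (-0.37). Among noncoding RNAs Firre was higher (0.57) and Pantr1 lower (-0.52), and the small nucleolar RNA hosts Snhg6 (-0.92), Snhg8 (-0.77), Epb41l4aos (-0.55) and Gas5 (-0.51) were lower. In the Dlk1-Dio3 domain Dio3 (-0.78) and Dlk1 (-0.66) were lower, and no other O-GlcNAc gene was called. Of the detained-intron genes 0 were higher after the length trend was removed and 12 when scaled by library size alone, which also turned the paraspeckle count to 0 lower and 2 higher.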

How the data were processed

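Polyadenylated RNA of brain stem was sequenced in 15 libraries. The authors aligned reads with HISAT2 in systemPipeR to GRCm39, per the labels and the study's methods, and deposited raw counts per Ensembl gene and RPKM values, replicates not pooled. The counting tool, annotation, strand setting and use of the kit's molecular indexes are not given in the sources used here. Read duplicates may therefore be counted, and reads of overlapping genes may be assigned to either.

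Of 57180 genes, 51884 had a symbol, and 0 sample columns were left unused. Counts were tested with edgeR 4.0.16 in R 4.3.3 (filterByExpr, scaling by the trimmed mean of M-values, quasi-likelihood F-test, Benjamini-Hochberg adjustment over all genes tested, threshold 0.05), on 6 AMPK and on 9 LMX1B libraries separately. The SE is the log2 fold change divided by the root of F. Levels are CPM on effective library sizes, and levels between genes are the deposited RPKM. Alternatives included DESeq2 1.42.0, limma 3.58.1 on log2(RPKM + 1), other scalings and filters, each library left out, the replicate number as a block and the removal of a lowess trend (span 0.3) with gene length. Exact Poisson intervals (95%) and floors (3 counts) cover counting error only. Transcript models came from GENCODE vM21 and promoters from RefSeq, both on GRCm38, which differs from the authors' build, so no other coordinates are given.

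The members and all gene lists were chosen with earlier results of these data known. Named genes are the 10 members, the called genes of each list (where more than 4 were called, the 2 of smallest p in each direction), the partners in the ratios, the 5 genes per experiment with a mean of at least 20 CPM whose log2 CPM (prior count 2) correlated most with the members' mean, and the genes of the labels. Leng9 was added after its values were seen, and 1 called gene of the LUC7-like and U1 snRNP list is not reported here. The fits were tested on simulated data with known changes, 100 genes at a log2 change of 1 and 100 at 2 in either direction. The changed genes were drawn from those with a mean of at least 20 CPM. All other genes were simulated without change and no trend with length was put in. The figures therefore do not cover rarer genes or such a trend. In the simulated AMPK comparison 79% and 100% of these were called, with 28 false calls among 17042 genes. In the simulated LMX1B-/- against LMX1B+/+ comparison 98% and 100% were called, with 13 false calls among 21380 genes.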

Additional observations from a re-analysis of the deposited data

How the results depend on the processing

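The log2 fold changes of the 10 members kept their direction in 732 of 768 alternatives over the 4 comparisons, and each change of sign was in a value that was not called. In AMPK-/- against AMPK+/+ the count of 5 called members became 3 with the length trend removed, 0 with limma on log2(RPKM + 1) and 0 without the 2 libraries of low depth, and ran from 4 to 6 when 1 library was left out. In LMX1B+/- against LMX1B+/+ the count of 4, all lower, became 7 with DESeq2 (6 lower, and Malat1 higher), 1 with the length trend removed (Malat1 higher) and 2 with only the 6 libraries compared, and ran from 0 to 6 when 1 library was left out. In LMX1B-/- against LMX1B+/- the count of 3 became 5 with DESeq2, 5 with scaling by library size only and 0 with the length trend removed, and ran from 0 to 4 when 1 library was left out. In LMX1B-/- against LMX1B+/+ it was 0 under each alternative run. Scaling by library size only moved the median of all genes to -0.18, -0.27 and 0.22 in these first 3 comparisons, and under it Malat1 in LMX1B-/- against LMX1B+/- turned positive. Rian in LMX1B+/- against LMX1B+/+ reversed with the length trend removed, to a log2 fold change of 0.43. The cause of these changes was not tested, apart from the fewer libraries where some were left out.

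Over all genes, the count of 1555 called in AMPK-/- was 680 with DESeq2, 901 with the length trend removed, 0 with limma and 6 without the 2 libraries of low depth, and ran from 541 to 2959 when 1 library was left out. The count of 4 in LMX1B-/- against LMX1B+/+ was 34 with DESeq2, 36 with the likelihood-ratio test and 329 with all genes of any count. With the replicate number as a block, the member counts were 5, 0, 4 and 2 in AMPK-/-, LMX1B-/- and LMX1B+/- against wild type and LMX1B-/- against LMX1B+/-. The correlation of deviations from the group means ran from -0.177 to 0.148 between libraries of the same number, not above 0.1 in every pair, so the numbers were not taken to pair the libraries. Between LMX1B+/+ and LMX1B-/- the same-number pairs were at 0.0758, 0.148 and 0.0974 and all others below 0 (-0.0952 to -0.0100). Larger values stood between different numbers: LMX1B+/- 1 with LMX1B-/- 3 at 0.237, 2 with 1 at 0.232 and 3 with 2 at 0.215. Same-number pairs of those groups were at -0.177, -0.133 and -0.149. Deviations from a mean of 3 libraries sum to 0, so these values depend on each other and no pairing is read from them. The number of LMX1B+/+ library 3 is that of its title and not of its count column. Depth limits the 2 shallow AMPK libraries, where the members rest on as few as 5 counts.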
